A study of Mus musculus with 32 samples.

Results

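The measurements described here are the 4 total RNA arrays of E1KD cells, out of 32 arrays in the series. They were chosen by their labels and not by any measured value. E1KD is a derivative of the mouse mammary epithelial cell line NMuMG in which hnRNP E1, the poly(C)-binding protein encoded by Pcbp1, was silenced by stable knockdown. Of these arrays, 2 came from E1KD cells given TGF-beta2 at 5 ng/ml for 24 h and 2 from E1KD cells that received none. Treated and control cells alike were kept in medium with serum and insulin. The arrays used beside them were 4 of total RNA from NMuMG cells of wild type genotype, 2 with the same TGFb treatment and 2 without, and 8 of the polysomal and monosomal RNA pools of E1KD cells, 2 for each pool and treatment. The methods call the 2 samples of a condition independent, without saying whether that means separate cultures. The p-values below measure only the spread between samples of a group, pooled over 24 total, monosomal and polysomal arrays of both lines. These include the polysomal and monosomal arrays of NMuMG, which enter no comparison here. Their median replicate difference reached 0.33 (monosomal RNA with TGFb), against 0.10 and 0.11 in E1KD control and treated total RNA. Whether E1KD is 1 clone or a pool of cells is not given in the sources used here.

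TGFb binds a pair of serine/threonine kinase receptors, and the activated receptors phosphorylate Smad proteins that move to the nucleus and turn genes on or off. In epithelial cells the cytokine is known for slowing the cell cycle and for driving epithelial to mesenchymal transition (EMT), in which junctions are taken down and fibronectin, vimentin and contractile proteins are built up. hnRNP E1 binds C-rich stretches of RNA and is known to hold back the translation of a set of EMT transcripts until TGFb signalling phosphorylates it. E1KD cells lack most of that brake and are described as mesenchymal without added TGFb. The comparison of TGFb-treated with control E1KD cells therefore asks what the cytokine still changes at the RNA level when hnRNP E1 is already low.

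The 4 arrays were even. Their median log2 signals lay between 5.43 and 5.46, and 48.2% to 48.5% of the probe sets on each were above 5.56, the median of all values. Replicates correlated at r = 0.996 with TGFb and r = 0.997 in the control, across the 25746 probe sets tested. The epithelial keratins Krt8 and Krt18 and the adhesion protein Cdh1 were between 11.8 and 14.4 on all 4 arrays, whereas the epithelial splicing regulator Esrp1 and the tight junction gene Cldn7 were below the median on all 4. Of the markers of other cell types, 0 of 10 fibroblast genes, 0 of 5 adipocyte genes, 1 of 7 myoepithelial genes, 1 of 8 endothelial genes and 3 of 9 leukocyte genes exceeded the median on any E1KD total RNA array. The 3 leukocyte genes were Cd68 (7.06 to 8.41 on the 4 arrays), Csf1r (7.18 to 8.18) and Laptm5 (6.51 to 7.23). Ptprc, the pan-leukocyte surface phosphatase, stayed at or below 3.80.

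Pcbp1, the target of the knockdown, was itself lower after TGFb. Its log2 signal was 9.55 and 9.33 in TGFb-treated E1KD cells, against 10.79 and 10.86 in control E1KD cells. The treated arrays lay below both control arrays, a change of -1.39 ± 0.10 (SE, n = 2 each; limma adjusted p = 1.26e-07). In NMuMG cells Pcbp1 was 13.14 and 13.14 with TGFb and 13.08 and 13.12 without, so that every E1KD array was more than 2 log2 units below every NMuMG array. The fall in E1KD was called different from the change in NMuMG (difference of -1.43, adjusted p = 8.26e-06), and Pcbp1 also fell in the polysomal pool (-0.83) and in the monosomal pool (-0.46). The treated and control E1KD cells thus differed in their Pcbp1 level as well as in TGFb, and the part of each in the changes below cannot be told apart. The related genes Pcbp2, Pcbp3 and Pcbp4 changed by -0.28, -0.12 and 0.10 in E1KD total RNA, and none of these 3 passed the test.

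In total RNA, a large share of genes differed between TGFb-treated and control E1KD cells. Each gene was represented by its probe set of highest mean signal, and a gene was called when its limma p-value, adjusted by the Benjamini-Hochberg method over all probe sets, was under 0.05. Of 12701 genes tested, 1470 (11.6%) rose and 1438 (11.3%) fell in E1KD cells. In NMuMG cells the same fit called 431 genes (3.39%) higher and 367 (2.89%) lower. Changes of at least 2-fold were called for 358 higher and 257 lower genes in E1KD, changes of at least 4-fold for 34 and 38, and changes of at least 8-fold for 3 and 12. The median change over all genes was -0.03. The split of calls between higher and lower depended on the scaling: over probe sets, 2897 (11.3%) were higher and 2488 (9.66%) lower, against 2057 and 3762 when the arrays were centred on the actin and Gapdh control probe sets, which were themselves 0.12 higher on average in the treated arrays. Groups of 2 arrays cannot give an exact permutation p below 0.333, so every call rests on limma's pooled estimate of the spread, and the small number of arrays limits its precision.

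Among the gene lists examined, the fall was widest in the unfolded protein response. When misfolded proteins build up in the endoplasmic reticulum (ER), the sensors Ire1, Perk and Atf6 raise the chaperones and folding enzymes of the ER. Through the integrated stress response, Perk raises Atf4, Atf3 and the death-linked factor Ddit3 (CHOP). Of the 40 genes listed for these responses, all tested, 34 fell in TGFb-treated E1KD cells, 2 rose and 4 did not pass, against 11.3% of all genes lower. Their median change was -0.94, beside -0.03 over all genes, and in 36 of them both treated arrays lay below both control arrays, which held for 37.1% of all genes.

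Ddit3 had log2 signals of 9.81 and 9.84 in TGFb-treated E1KD cells and 13.45 and 13.54 in control E1KD cells. The treated arrays were far below the controls, by 12.7-fold (-3.67 ± 0.10, adjusted p = 9e-13), and Ddit3 in NMuMG cells lay between the E1KD groups at 12.76 and 12.75 with TGFb against 12.77 and 12.79 without. Atf3, a stress-induced partner of Ddit3, was 8.80 and 8.73 with TGFb against 11.86 and 11.80 in control (-3.07). Ppp1r15a (GADD34), which recruits the phosphatase that restarts translation after stress, was 8.83 and 8.83 with TGFb against 11.63 and 11.65 in control (-2.81). Among the ER genes, Sdf2l1, a partner of the chaperone BiP, was 9.01 and 8.86 with TGFb and 12.18 and 12.17 in control (-3.24). Creld2, a secreted ER stress factor, was 9.82 and 9.93 against 12.44 and 12.37 (-2.53). The abundant chaperones fell less but without overlap: Hspa5, which encodes BiP itself, was 13.37 and 13.48 with TGFb against 14.32 and 14.36 in control (-0.92, adjusted p = 1.06e-05). Calr, the calcium-binding chaperone calreticulin, was 12.73 and 12.61 with TGFb against 13.87 and 13.87 in control (-1.20). The 2 members that rose were Ddit4, an inhibitor of mTORC1 (0.59), and Vldlr, a lipoprotein receptor (0.39). The 4 that did not pass were the amino acid genes Asns (-0.09), Psat1 (0.08) and Slc7a11 (0.27) and the hormone gene Fgf21 (-0.16), all known as targets of Atf4. The Vldlr call was lost in 3 of the 4 fits that left out 1 E1KD array (without TGFb replicate 2 or either control replicate) and with the arrays centred on actin and Gapdh.

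Several of the genes that fell carry the ER stress response element (ERSE) in their promoter, the bipartite site where the factors NF-Y and Atf6 bind. It was searched on both strands as CCAAT and CCACG separated by 9 bases, in RefSeq promoter windows of build GRCm38.p6 that ran from 250 bases before to 50 after the gene start. The element was found in 7 of 31 members that fell and have a window (22.6%), in 17 of 10253 genes tested (0.166%) and in 39 of all 32851 windows (0.119%). Among all genes with a window it was in 12 of 1181 that fell (1.02%) and 1 of 1192 that rose (0.0839%). Most genes that fell thus lack it. The windows below are those of the 7 members, written along the strand of the gene, with the paired boxes in capitals. They are shown because they are shared by genes that fell together; a match is a description of the sequence and not evidence of binding.
Creld2 (chr15:88819515-88819543, plus strand, change -2.53): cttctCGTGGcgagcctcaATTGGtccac
Pdia6 (chr12:17266486-17266514, plus strand, change -1.82): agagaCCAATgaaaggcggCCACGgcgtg
Dnajc3 (chr14:118937822-118937850, plus strand, change -1.80): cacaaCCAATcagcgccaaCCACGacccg
Calr (chr8:84847070-84847098, minus strand, change -1.20): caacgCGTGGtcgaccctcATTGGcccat
Hspa5 (chr2:34772020-34772048, plus strand, change -0.92): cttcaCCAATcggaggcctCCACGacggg
Hsp90b1, nearer of 2 sites (chr10:86705528-86705556, minus strand, change -0.81): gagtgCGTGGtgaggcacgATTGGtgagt
Canx (chr11:50325795-50325823, minus strand, change -0.44): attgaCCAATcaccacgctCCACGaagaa
In Creld2, Calr and the Hsp90b1 site shown, the element lies on the strand opposite to the gene, so the boxes read CGTGG and ATTGG. Pdia6 and Dnajc3, a disulfide isomerase and a co-chaperone, fell more than the general chaperones Hsp90b1 and Canx with the same boxes. The Hsp90b1 and Canx falls each passed the test (adjusted p = 0.00797 and 0.00763), but their differences from NMuMG did not (adjusted p = 0.0794 and 0.0991). The Hsp90b1 call was lost without TGFb replicate 2 or control replicate 1, and the Canx call without TGFb replicate 1 or control replicate 1.

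**Figure D1:**
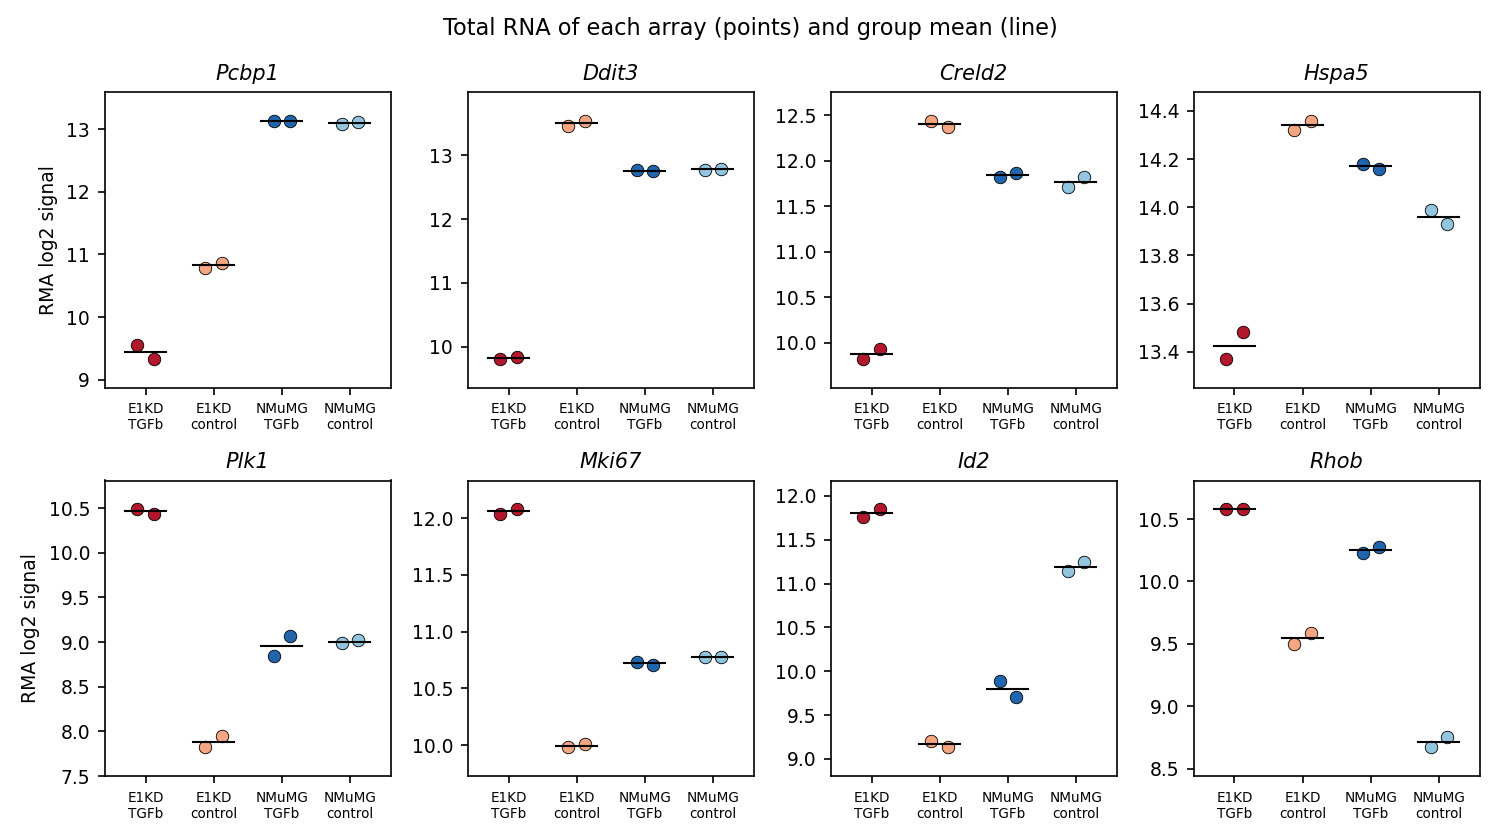
RMA log2 signal (vertical axes, each with its own range) of 8 genes in total RNA, by group: E1KD with TGFb, E1KD control, NMuMG with TGFb and NMuMG control. Points are the 2 arrays of a group and the line is their mean; Ddit3 stood at 9.81 and 9.84 in TGFb-treated E1KD cells against 13.45 and 13.54 in control E1KD cells, whereas Plk1 and Mki67 were highest in TGFb-treated E1KD cells.

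Genes of mitosis moved the opposite way. This group holds the kinases, kinesins, cyclins and kinetochore proteins that build the spindle and divide the cell, and their RNA is known to peak in G2 and M phase. Of 65 members tested, 58 rose in TGFb-treated E1KD cells, against 11.6% of all genes higher, and the median change was 1.32. In all 65 the treated arrays lay above both control arrays, which was the case for 33.4% of all genes. The 7 members that did not pass were Smc2, Ncaph, Tpx2, Zwilch, Knstrn, Cenpk and Cenpn, with changes between 0.33 and 0.91. As a bulk measurement, this cannot separate more cells in mitosis from more RNA in each such cell.

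Plk1, the kinase that drives mitotic entry, had log2 signals of 10.49 and 10.44 in TGFb-treated E1KD cells and 7.82 and 7.95 in control E1KD cells. The groups were 5.98-fold apart with no overlap (2.58 ± 0.20, adjusted p = 2.27e-07). Kif20a, a kinesin of the central spindle, was 9.56 and 9.67 with TGFb against 6.80 and 7.07 in control (2.68), and Kif2c, which takes microtubules apart at centromeres, was 10.15 and 10.17 against 7.82 and 7.82 (2.34). Mki67, the proliferation marker Ki-67, was 12.04 and 12.08 with TGFb and 9.98 and 10.01 in control. Its change of 2.07 (adjusted p = 3.73e-09) placed the treated arrays above NMuMG cells (10.73 and 10.71 with TGFb, 10.78 and 10.78 without) and the control arrays below them. The same order held for the group as a whole: averaged over the 65 members, the log2 signal was 10.18 and 10.19 in TGFb-treated E1KD cells and 8.79 and 8.88 in control E1KD cells, with NMuMG cells in between at 9.45 and 9.50 with TGFb and 9.51 and 9.56 without.

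Genes of DNA replication rose with them but to a lesser extent. Of 51 tested, 28 rose and 1 fell, against 11.6% and 11.3% of all genes, with a median change of 0.50. When any 1 of the 4 E1KD arrays was left out, 16 to 18 rose. E2f8, a repressor of the E2F family that is itself made in S phase, was 9.65 and 9.45 with TGFb against 7.47 and 7.60 in control (2.02). Rrm2, the regulated subunit of ribonucleotide reductase, was 12.33 and 12.18 against 10.20 and 10.32 (2.00), and the thymidine kinase gene Tk1 was 9.70 and 9.64 against 8.32 and 8.51 (1.26). The treated arrays exceeded the controls in each of these 3 genes. In NMuMG cells E2f8 and Tk1 fell with TGFb (-0.86 and -0.89, adjusted p = 0.00494 and 0.00042), and both differences between the lines passed the test.

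The promoters of the mitotic genes often hold the cell cycle homology region (CHR), TTTGAA, the site through which the DREAM and B-Myb complexes are known to time G2 and M phase genes. Searched on both strands in the same windows, it was present in 35 of the 48 rising mitotic members that have a window (72.9%), in 19.2% of all genes that rose, 11.9% of all genes that fell and 14.3% of the genes tested; it occurs in 17.9% of all windows. The sites of 4 members among the largest rises are shown with the hexamer in capitals, along the strand of the gene, to show what the group shares.
Plk1 (chr7:122159456-122159479, plus strand, change 2.58): agcgccgcgTTTGAAttcggggag
Kif2c (chr4:117178861-117178884, minus strand, change 2.34): ggctgctctTTCAAAcctgagtaa
Cenpf (chr1:189688070-189688093, minus strand, change 2.23): ggcgggcagTTTGAAtcgctcgtg
Mki67, nearer of 2 sites (chr7:135716463-135716486, minus strand, change 2.07): ccgttttggTTTGAAtcgggcggg
In Kif2c the hexamer lies on the opposite strand and reads TTCAAA. The CCAAT box, CCAAT, which is also part of the ERSE, was in 70.8% of the rising mitotic members' windows, 77.4% of the falling unfolded protein response members' windows, 42.4% of those of the genes tested and 37.4% of all windows. Among the genes that rose, the genes that fell and all genes tested, the AP-1 site TGANTCA was in 6.88%, 7.28% and 6.43% of windows, the Smad palindrome GTCTAGAC in 0.168%, 0.169% and 0.312%, and the shorter Smad site CAGACA in 18%, 17.8% and 19.6%. In the same order, the amino acid response site TGATGNAA was in 2.43%, 4.15% and 2.7%, the cAMP response site TGACGTCA in 2.94%, 4.23% and 3.38%, the E box CACCTG in 17.7%, 21.9% and 21.9%, and the interferon response site in 3.1%, 2.62% and 3.21%.

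**Figure D2:**
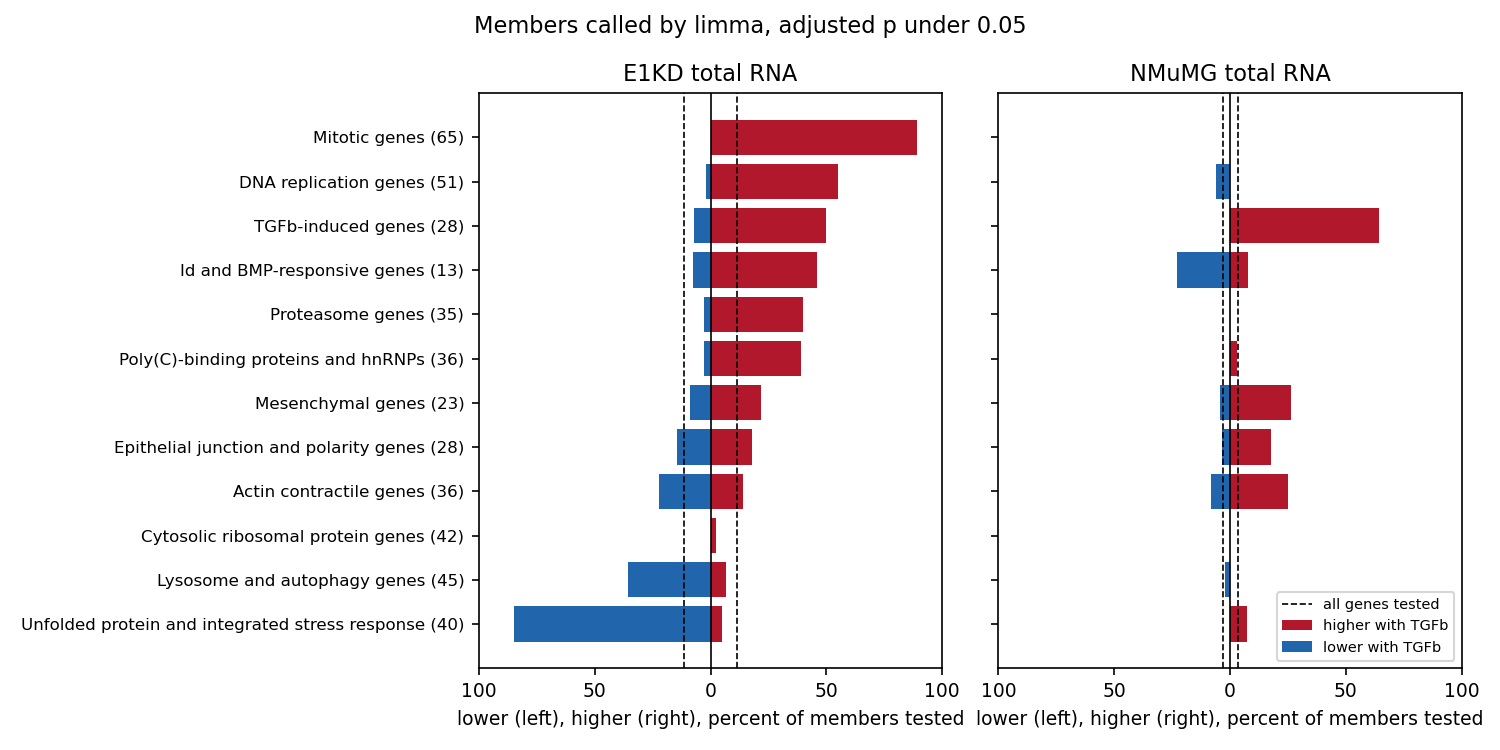
Share of the members of 12 gene lists called higher (right, red) or lower (left, blue) with TGFb, as a percent of the members tested (number in brackets), in E1KD and in NMuMG total RNA; dashed lines mark the shares over all genes tested. In E1KD the bars for mitotic genes (58 of 65 higher) and for the unfolded protein response (34 of 40 lower) are the longest, and in NMuMG the longest is that of TGFb-induced genes (18 of 28 higher).

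Genes known as direct or early targets of TGFb were raised in E1KD cells, on fewer members than in NMuMG. Of 28 tested, 14 rose and 2 fell in E1KD (median 0.38), where 11.6% of all genes rose, and 18 rose in NMuMG (median 0.69), where 3.39% of all genes rose. The E1KD count was 8 or 9 when any 1 of its 4 arrays was left out. Il11, a cytokine of the IL-6 family, was 9.41 and 9.22 with TGFb against 8.01 and 8.21 in control E1KD cells (1.21, adjusted p = 5.34e-05). Rhob, a small GTPase, was 10.58 and 10.58 against 9.50 and 9.59 (1.04), and Itgb6, the integrin subunit that activates latent TGFb, was 9.27 and 8.91 against 8.01 and 7.80 (1.19). No array of the treated group overlapped the controls in these 3 genes. The feedback inhibitors Smad7 (0.54) and Pmepa1 (0.35) and the matricellular gene Ccn2 (0.41) rose as well, by less than 2-fold. The Smad7 and Pmepa1 calls were lost in all 4 fits that left out 1 E1KD array.

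Where the lines differed in this group, the response was mostly smaller in E1KD. A change more negative than in NMuMG was called for 9 members (32.1%), against 6.72% of all genes. A more positive one was called for 2 (7.14%), against 6.2%. Fn1, which encodes fibronectin, did not pass in E1KD (-0.10) and rose by 1.85 in NMuMG. The growth factor gene Pdgfb (0.06 in E1KD, 1.52 in NMuMG), the AP-1 gene Jun (0.13 and 1.24) and the Smad co-repressor Ski (0.01 and 0.88) showed the same contrast, and each of these 4 differences passed the test. That of Jun was lost without E1KD TGFb replicate 2, E1KD control replicate 2, NMuMG TGFb replicate 2 or NMuMG control replicate 1. Pdgfa rose in both lines, by 0.88 in E1KD and 1.86 in NMuMG, and the difference of -0.98 was called (adjusted p = 0.0106). The 2 members that fell in E1KD were the smooth muscle genes Tagln and Acta2. Tagln was 6.16 and 6.38 with TGFb against 8.34 and 8.42 in control E1KD cells, all 4 of them above the 5.41 to 5.68 of the NMuMG arrays.

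Id2 and Id3, which encode inhibitors of basic helix-loop-helix factors and are classic targets of BMP signalling, rose in E1KD and fell in NMuMG. Of the list of 13 Id and BMP-responsive genes tested, 6 rose and 1 fell in E1KD, against 11.6% and 11.3% of all genes. Id2 had log2 signals of 11.76 and 11.85 in TGFb-treated E1KD cells and 9.20 and 9.13 in control E1KD cells, a rise of 6.23-fold (2.64 ± 0.18, adjusted p = 3.53e-08). In NMuMG cells Id2 was 9.89 and 9.71 with TGFb and 11.14 and 11.25 without (-1.40). Id1 was 11.32 and 11.25 with TGFb against 9.57 and 9.64 in control E1KD cells (1.68), and its change in NMuMG was -0.47 (adjusted p = 0.0619). Id3 rose by 0.69 in E1KD and fell by 0.82 in NMuMG. These 3 differences between the lines passed the test, whereas Id4 passed in neither line (-0.15 in E1KD and -0.41 in NMuMG). Smad6, an inhibitory Smad induced by BMPs (1.13), the ligand gene Bmp2 (1.72) and the receptor gene Bmpr2 (0.67) also rose in E1KD, while Bmp4 fell by 1.24 there and by 1.30 in NMuMG. The Bmpr2 call was lost in each of the 4 fits that left out 1 E1KD array. Of the 22 TGFb ligands, receptors and Smads tested, 4 rose and 1 fell, among them Ltbp1, which tethers latent TGFb to the matrix (1.34), and the type I receptor gene Tgfbr1 (0.81).

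The lists of EMT genes had small median changes. Of 23 mesenchymal genes, 5 (21.7%) rose and 2 (8.7%) fell (median 0.14), against 11.6% and 11.3% of all genes. Of 28 junction and polarity genes, 5 (17.9%) rose and 4 (14.3%) fell (median 0.14). Snai2 (Slug), a repressor of Cdh1, was 10.19 and 10.18 with TGFb against 11.83 and 11.89 in control E1KD cells. The fall of 1.68 (adjusted p = 7.47e-06) differed from the change of 0.36 in NMuMG, which did not pass. The related repressor genes Snai1 (0.62), Zeb1 (0.44) and Twist2 (1.01) rose, and S100a4, a calcium-binding protein of motile cells, rose by 0.93, with treated arrays at 12.53 and 12.58 and controls at 11.62 and 11.64. Zeb2 was called lower (-0.74, adjusted p = 0.0483), at 9.0 and 8.49 with TGFb and 9.70 and 9.26 in control, with no overlap but replicates far apart. Its call was lost without TGFb replicate 2 or either control replicate, with no filter on low values, with only the 4 E1KD arrays and under quantile normalisation. The call was lost for Snai1 without TGFb replicate 2 or control replicate 2, for Twist2 without TGFb replicate 1 and for Zeb1 without control replicate 1. Of 36 contractile and actin-binding genes, 8 (22.2%) fell and 5 (13.9%) rose, against 11.3% and 11.6% of all genes. Acta1, skeletal alpha-actin, was 8.65 and 8.64 with TGFb against 10.54 and 10.52 in control E1KD cells (-1.89), and in NMuMG it rose by 1.05.

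The largest single changes lay mostly outside these lists. Where a group was below 5.56, the median of all values, a change is a difference of RMA signals near the floor and gives no exact fold. Prdx4, the peroxiredoxin of the ER, was 4.02 and 4.15 in TGFb-treated E1KD cells and 8.48 and 8.53 in control E1KD cells. The difference was -4.42 ± 0.11 (adjusted p = 5.42e-13). The treated signals lay near those of the adipocyte genes Lep and Adipoq (3.52 to 3.82 on the 4 arrays), so no exact fold is given, and NMuMG cells held 11.03 and 11.01 with TGFb and 11.10 and 11.06 without. The keratin gene Krt7 showed the same order, at 5.16 and 4.96 with TGFb, 8.51 and 8.53 in control E1KD cells and 11.09 to 11.25 in NMuMG cells. The other large decreases were Prr32 (-4.38), Mamdc2 (-4.18), the secreted carbonic anhydrase gene Car6 (-3.93), the collagenase gene Mmp13 (-3.38), the actin-severing advillin gene Avil (-3.33), the iron carrier gene Lcn2 (-3.14), the glycosyltransferase gene B4galnt2 (-3.12), the glutathione transferase gene Gsta2 (-2.96) and the basement membrane collagen gene Col4a4 (-2.95), beside Ddit3, Sdf2l1 and Atf3. Mamdc2 fell to 5.27 and 5.12 with TGFb, against 9.34 and 9.40 in control E1KD cells, which stood alone above the NMuMG arrays at 5.02 to 5.31. Ndn, the imprinted gene of necdin, fell by 2.98 by its probe set of largest change and by 1.07 by that of highest mean signal, where the call was lost without TGFb replicate 1 or control replicate 2.

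The largest increases included AF067061 (3.41), Tcstv1 (3.13) and Gm20767 (2.99), of which Tcstv1 is known from the early mouse embryo. AF067061 was 9.07 and 9.13 with TGFb against 5.73 and 5.65 in control E1KD cells, and Tcstv1 was 7.10 and 6.94 against 3.84 and 3.95. In both genes the NMuMG arrays lay between the E1KD groups, and related copies of such genes may share probes. Chst11, a chondroitin sulfotransferase gene, was 7.98 and 7.91 against 4.92 and 4.88 (3.05), with all 4 NMuMG arrays below 4.0. The zinc finger gene Zfp469 (2.99), the noncoding transcript Rab26os (2.76), the chemokine gene Cxcl5 (2.50), Depdc1a (2.39) and Plek2 (2.37), a pleckstrin family gene, belonged to the same set. Kif23, a kinesin of the midbody, rose by 2.90 by its most changed probe set and by 1.96 by that of highest mean, the semaphorin and VEGF co-receptor gene Nrp1 by 2.59 and 2.29, and the pore-forming claudin gene Cldn2 by 2.57 and 2.42.

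Smaller shifts were seen in genes of RNA processing and protein breakdown, to be read against 11.6% of all genes higher and 11.3% lower. Of 36 poly(C)-binding proteins, hnRNPs and splicing factors, 14 rose and only Pcbp1 fell. The rises numbered 7 to 9 when any 1 of the 4 E1KD arrays was left out, and 8 with the arrays centred on actin and Gapdh. Hnrnpa0 was 11.88 and 11.89 with TGFb against 10.50 and 10.53 in control E1KD cells (1.37), Hnrnpd, the AU-rich element binding protein AUF1, was 12.27 and 12.36 against 11.15 and 11.17 (1.16), and Srsf3 rose by 0.95, although its probe sets disagreed. Of 35 proteasome genes, 14 rose and 1 fell, with Psmc4, an ATPase of the regulatory particle, at 0.80, and 7 to 8 rose when any 1 of the 4 arrays was left out. Of 45 lysosome and autophagy genes, 16 fell and 3 rose, and 8 fell without control replicate 2 (11 or 12 without any other E1KD array). Npc1, the lysosomal cholesterol exporter, was 8.06 and 7.90 with TGFb against 9.36 and 9.16 in control, and the calcium channel gene Mcoln1 was 9.23 and 9.13 against 10.34 and 10.29. Cytosolic ribosomal protein genes were level, with 1 of 42 passing the test (Rpl12, which rose by 1.0) and a median of -0.02. Of 14 noncoding transcripts, 7 fell and 2 rose, against 11.3% and 11.6% of all genes. Among the snoRNA host genes, Snhg1 (-0.61), Gas5 (-0.61) and Snhg8 (-0.45) fell, and the probe sets of Snhg1 and Gas5 disagreed. Snhg12 also fell and Snhg3 rose: Snhg12 was 10.70 and 10.67 with TGFb against 13.04 and 13.08 in control (-2.38), and Snhg3 was 10.58 and 10.81 against 8.38 and 8.40 (2.31). Neat1, the scaffold of paraspeckles, fell by 1.57.

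The test of the difference between the lines asked which of these changes were particular to E1KD cells. It shares its E1KD arrays with the comparison above and called 787 genes (6.2%) with a more positive and 854 (6.72%) with a more negative change in E1KD than in NMuMG. All 51 mitotic members that it called were more positive in E1KD, as were 25 of the 26 replication genes it called, and all 31 unfolded protein response members that it called were more negative. Of the genes that rose in E1KD, 173 rose in NMuMG as well and 63 fell there. Of those that fell in E1KD, 107 fell in NMuMG and 55 rose. Shared rises made up 11.8% of the E1KD rises and 40.1% of the NMuMG rises, and shared falls 7.44% and 29.2%. Mab21l4 rose alike, with 11.08 and 11.04 against 8.75 and 8.72 in E1KD (2.33) and 10.33 and 10.43 against 8.05 and 8.09 in NMuMG (2.31). A difference that missed the threshold does not show that changes were equal.

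Among the genes with the largest differences, Klhl30, Sprr1a and Plat changed in opposite directions. Klhl30, a kelch family gene, was 8.59 and 8.57 with TGFb and 9.70 and 9.85 in control E1KD cells. In NMuMG cells it was 9.29 and 9.38 with TGFb and 4.71 and 4.42 without, so that the untreated NMuMG arrays stood far below all others and the difference was -5.97. Sprr1a, a cornified envelope precursor, rose by 2.33 in E1KD and fell by 2.09 in NMuMG, and Plat, the tissue plasminogen activator gene, rose by 1.59 and fell by 2.19. The immediate early gene Egr1 was 9.19 and 9.02 with TGFb against 7.51 and 7.62 in control E1KD cells (1.54), but 6.40 and 6.27 against 7.96 and 8.01 in NMuMG cells (-1.65). The retinaldehyde dehydrogenase gene Aldh1a1 followed the same pattern (1.02 and -2.13), although its E1KD call was lost without TGFb replicate 1 or control replicate 1. Cldn4, a claudin of tight junctions, was called lower in E1KD (-0.76) and higher in NMuMG (2.53), and the E1KD call was lost in each of the 4 fits that left out 1 E1KD array, with the replicate block, with no filter on low values and under quantile normalisation. Ttr, the transthyretin gene, was near the floor in E1KD by its probe set of largest difference, at 3.2 and 3.6 with TGFb and 3.30 and 3.27 without.

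**Figure D3:**
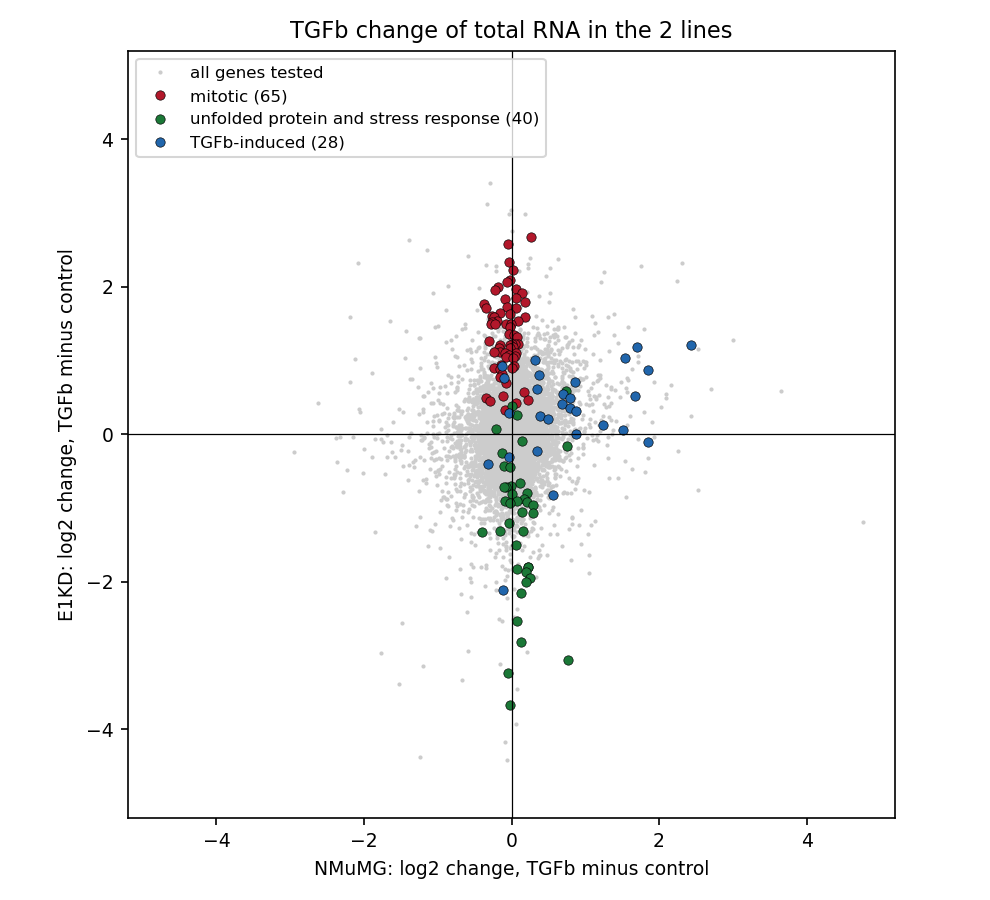
Log2 change with TGFb in E1KD total RNA (vertical) against that in NMuMG total RNA (horizontal) for 12701 genes, with 3 gene lists coloured. Mitotic genes lie above 0 in E1KD and near 0 in NMuMG, unfolded protein response genes mostly below 0 in E1KD and near 0 in NMuMG, and TGFb-induced genes mostly above 0 in both lines.

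The polysomal and monosomal arrays of E1KD gave the same treatment in RNA whose values did not enter the total RNA changes. They did enter the shared filter, the choice of probe set for each gene and the estimate of spread. In the polysomal pool, the actively translated mRNA, 445 genes (3.5%) rose and 202 (1.59%) fell. Of the 1470 genes that rose in total RNA, 169 rose in the polysomal pool, which is 11.5% of the total RNA rises and 38.0% of the polysomal rises, and 17 fell there. Of the 1438 that fell in total RNA, 58 fell in the polysomal pool (4.03% and 28.7%) and 26 rose. In the monosomal pool, 1988 genes (15.7%) rose and 3668 (28.9%) fell. Across all genes, which are not independent of each other, the changes in total RNA correlated with those in the polysomal pool at r = 0.23 and with those in the monosomal pool at r = 0.049.

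The mitotic and ER stress changes were seen in total RNA and not in the polysomal pool. In the polysomal pool, 1 of 65 mitotic genes passed the test, upward (median -0.10). In the monosomal pool 3 rose and 34 fell (median -0.53), against 15.7% and 28.9% of all genes. A test of the difference between the total and polysomal changes, added after the values had been seen, called 52 of the 65 more positive in total RNA, against 5.41% of all genes. Plk1 changed by 2.58 in total RNA and by -0.21 in polysomal RNA, and Mki67 by 2.07 and -0.31. Of the 40 unfolded protein response genes, 2 (5%) passed the test in the polysomal pool, both upward (median -0.11), against 3.5% of all genes. In the monosomal pool 27 (67.5%) fell and 2 (5%) rose (median -0.50), against 28.9% and 15.7% of all genes. A fall was thus called for most members there too. The change was called more negative in total than in polysomal RNA for 27 members, against 7.05% of all genes. Ddit3 changed by -3.67 in total, -0.13 in polysomal and -0.43 in monosomal RNA. Averaged over the 40 members, the log2 signal in polysomal RNA was 10.93 and 10.97 with TGFb and 11.02 and 11.05 without, while in total RNA it was 10.72 and 10.69 with TGFb and 11.89 and 11.89 without. Whether the total RNA and the gradient fractions came from the same cultures is not given in the sources used here, and the part of culture or harvest in this gap was not tested.

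Of the 28 TGFb-induced genes, 8 (28.6%) rose and 1 (3.57%) fell in the polysomal pool, against 3.5% and 1.59% of all genes. Their median there was 0.30, beside 0.38 in total RNA. In the monosomal pool 9 (32.1%) rose and 6 (21.4%) fell (median 0.03), against 15.7% and 28.9% of all genes. The total change was called more positive than the polysomal one for 3 members (10.7%), against 5.41% of all genes. It was called more negative for 1 (3.57%), against 7.05%. Il11 rose by 1.21 in total, 1.44 in polysomal and 2.08 in monosomal RNA, Rhob by 1.04, 1.08 and 0.74, and Itgb6 by 1.19 and 1.04 in total and polysomal RNA, with a monosomal change of 0.39 that did not pass (adjusted p = 0.191). The total minus polysomal difference was not called for these 3 genes (adjusted p = 0.605, 0.929 and 0.844).

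**Figure D4:**
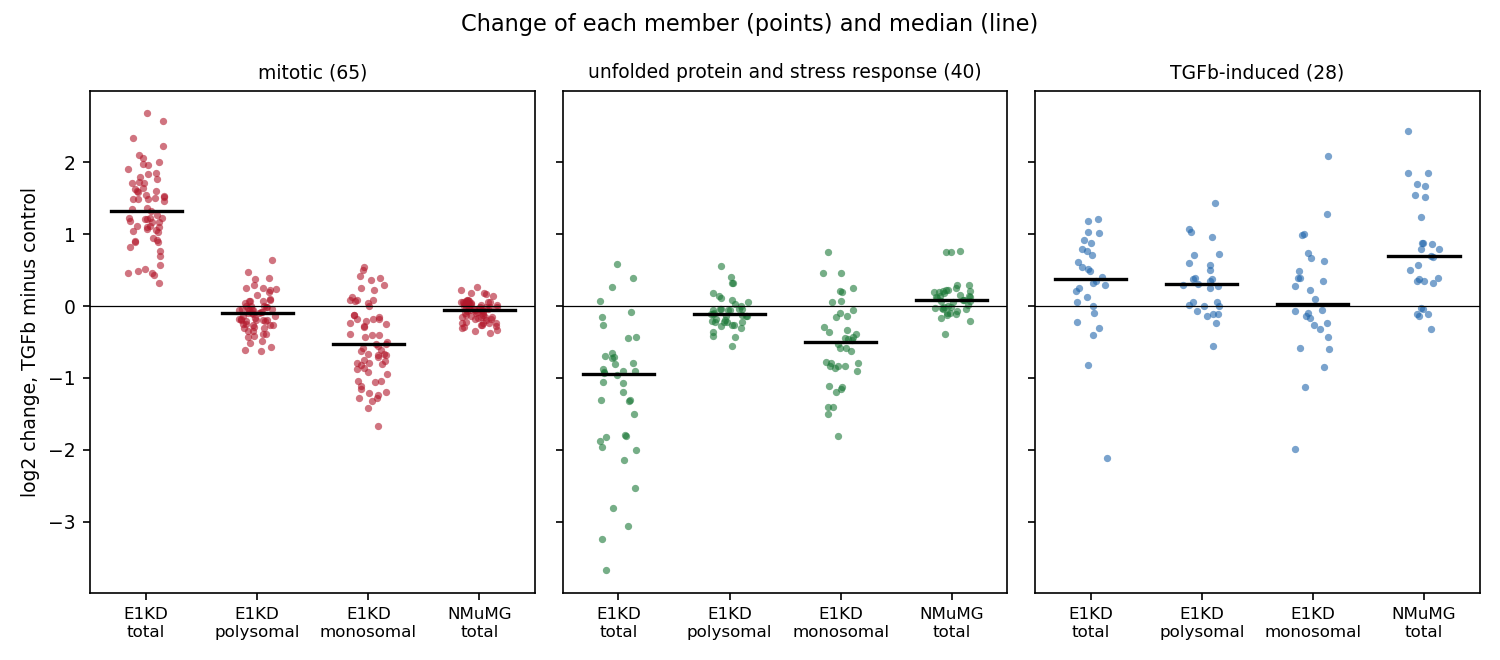
Log2 change with TGFb (vertical) of each member of 3 gene lists in E1KD total, polysomal and monosomal RNA and in NMuMG total RNA; points are genes and lines are medians. For mitotic genes the median was 1.32 in E1KD total RNA and -0.10 in polysomal RNA, whereas for TGFb-induced genes it was 0.38 and 0.30.

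The same direction was called in the total, polysomal and monosomal RNA of E1KD for 98 genes, 76 higher and 22 lower. Of all genes, 11.6%, 3.5% and 15.7% were called higher in these 3 pools, and 11.3%, 1.59% and 28.9% lower. In NMuMG total RNA, 30 of the 76 and 13 of the 22 were called the same way, against 3.39% and 2.89% of all genes. The rises included Mab21l4 (2.33, 0.67 and 1.76 in total, polysomal and monosomal RNA), Add2, a membrane skeleton gene (2.21, 0.62 and 0.85), the secreted protease gene Htra3 (1.99, 0.77 and 0.61), the cell surface gene Flrt2 (1.79, 1.26 and 0.81), Egr1 (1.54, 1.6 and 0.94) and Il11. Among the falls were Prdx4 (-4.42, -3.37 and -0.77), Gsta2 (-2.96, -1.04 and -2.21), Gsta4 (-1.32, -0.78 and -1.49) and Pcbp1. Of the 34 genes that rose at least 4-fold in total RNA, 5 rose in the polysomal pool, against 3.5% of all genes. Of the 38 that fell at least 4-fold, 5 fell there, against 1.59% of all genes.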

How the data were processed

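RNA was hybridised to Affymetrix mouse whole-genome expression arrays, 1 per sample. The authors normalised all 32 arrays by RMA in Affymetrix Expression Console and deposited log2 values for 45101 probe sets; detection calls came from MAS5 and were not used here. RMA fits arrays together and compresses low signals, so small changes near the floor are understated. Probe sets were named from the platform annotation (34945 with 1 symbol, 932 with several, 9160 with none, 64 controls). The deposited log2 values were used as they stand. Probe sets above the median of all values (5.56) on at least 6 of the 24 total, monosomal and polysomal arrays were tested: 25746, of which 22252 named 12701 genes. limma 3.58.1 in R 4.3.3 was fitted to 12 groups (12 residual degrees of freedom), two-sided, with Benjamini-Hochberg adjustment and a threshold of 0.05; contrasts were TGFb minus control in E1KD and NMuMG total RNA, their difference, and the same change in the E1KD polysomal and monosomal pools. On simulated data the E1KD contrast recovered 18% of changes of 0.5, 62% of changes of 1 and 100% of changes of 2 on the log2 scale. There were 6 false calls among 25746 probe sets. The simulation used normal noise with a spread pooled over the 12 groups and planted 50 changes of each size. The real contrast had far more calls and the total RNA arrays varied less than the fractions, so these shares need not hold for it. The gene lists and members were chosen with earlier results of these data known. The difference of total and polysomal changes and the searches for the ERSE, the CCAAT box and the amino acid response site were added after values had been seen. Genes named are the 15 largest called increases and decreases in E1KD without overlap between groups, the 10 largest differences between the lines in each direction, Pcbp1 to Pcbp4, up to 6 members of largest change per list, members needed to explain a count and genes the study names; others, such as those shared by 3 pools, were picked after their values were seen. Of 12701 genes, 10253 matched a RefSeq promoter window. Alternatives were other filters, only the total RNA arrays, a replicate block, a trended prior, quantile scaling, centring on actin and Gapdh, and leaving out each total RNA array. RNA immunoprecipitation arrays were not used here.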

Additional observations from a re-analysis of the deposited data

Results flagged for a closer look

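A test of the difference itself, limma's interaction of line and treatment, singled out 787 genes whose change with TGFb was more positive in E1KD than in NMuMG cells and 854 whose change was more negative. Each value below is the E1KD change minus the NMuMG change on the log2 scale for a gene described in the report, in a list or among the largest differences, and each passed at an adjusted p under 0.05.

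The most positive differences were those of Sprr1a (4.41), Id2 (4.39), Plat (3.78), AF067061 (3.71), Cxcl5 (3.64), Nrp1 (3.47), Tcstv1 (3.46), Ttr (3.36), Egr1 (3.19), Aldh1a1 (3.15), Chst11 (3.05), Gm20767 (3.02), Cldn2 (3.01) and Cxcl1 (2.99). Positive differences of middle size were those of E2f8 (2.87), Zfp469 (2.81), Rab26os (2.76), Plk1 (2.63), Htra3 (2.43), Kif20a (2.42), Kif2c (2.38), Rrm2 (2.23), Cenpf (2.21), Kif23 (2.19), Id1 (2.15), Depdc1a (2.15), Tk1 (2.14) and Mki67 (2.13). Among the named genes, those of smallest positive difference were Ccna2 (2.12), Snhg3 (2.08), Plek2 (1.74), S100a4 (1.64), Flrt2 (1.62), Bmp2 (1.6), Id3 (1.51), Twist2 (1.38), Hnrnpd (1.06), Add2 (0.96), Ccl2 (0.91), Hnrnpa0 (0.9), Srsf3 (0.74) and Junb (0.69).

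On the negative side, the largest differences were those of Klhl30 (-5.97), Prdx4 (-4.36), Mamdc2 (-4.08), Car6 (-3.99), Atf3 (-3.84), Ddit3 (-3.65), Krt7 (-3.54), Cldn4 (-3.29), Sdf2l1 (-3.2), Ndn (-3.18), Col4a4 (-3.16), Prr32 (-3.15), B4galnt2 (-2.97) and Ppp1r15a (-2.94). Negative differences of middle size were those of Acta1 (-2.93), Avil (-2.67), Creld2 (-2.61), Snhg12 (-2.45), Pdia4 (-2.27), Snai2 (-2.04), Dnajc3 (-2.02), Tagln (-2), Fn1 (-1.95), Lcn2 (-1.94), Pdia6 (-1.89), Mmp13 (-1.85), Neat1 (-1.71) and Zeb2 (-1.59). The negative differences nearest to 0 among the named genes were those of Pdgfb (-1.46), Pcbp1 (-1.43), Acta2 (-1.39), Il11 (-1.24), Npc1 (-1.23), Gsta2 (-1.19), Calr (-1.16), Hspa5 (-1.13), Jun (-1.11), Mcoln1 (-1), Pdgfa (-0.98), Fgf21 (-0.91) and Ski (-0.88). Id2, Nrp1, Ttr and Ndn are given here by their probe set of largest difference. The calls of Bmp2, Depdc1a, Fgf21, Gsta2, Jun, Junb and Twist2 were lost in other fits, as given below. No explanation of these differences was tested.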

How the results depend on the processing

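The counts of calls depended on which arrays set the estimate of spread. In E1KD, 2897 probe sets were higher and 2488 lower. With only the 8 total RNA arrays these were 5566 and 4911, with only the 4 E1KD arrays 4662 and 3954, and by a fold of at least 2 between means, with no test, 749 and 502. Centred on actin and Gapdh, 3762 were lower. For NMuMG (758 and 608) the 8 arrays gave 2547 and 1790. For the difference between the lines (1453 and 1440) they gave 3610 and 3720, and centring gave 931 and 2586. For total minus polysomal changes (1341 and 1574), an alternative chosen after seeing the data, centring gave 721 and 3680. The hnRNP list (14 higher) had 8 when centred and 23 with 8 arrays, and the proteasome list (14 higher) had 27 with 8 arrays.

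With 1 array left out, where the lone array was assumed to vary like the other groups, the E1KD counts ranged from 1641 to 1935 higher and from 1402 to 1686 lower. NMuMG gave 362 to 417 and 270 to 294, the difference between the lines 885 to 1004 and 833 to 1004, and total minus polysomal 770 to 859 and 819 to 1018. Members called ranged from 50 to 54 for mitotic genes, 31 to 33 for the unfolded protein response, 16 to 18 for DNA replication, 8 to 9 for TGFb-induced genes, 7 to 9 for hnRNPs, 7 to 8 for proteasome genes and 8 to 12 for lysosome genes. With the replicate number as a block, 2959 probe sets were higher and 2549 lower in E1KD, beside 2897 and 2488 without it. Same-numbered E1KD arrays did not deviate together (r = -0.036) and share only a number. No result reversed its direction. The differences between the lines of Depdc1a, Fgf21, Gsta2 and Junb were lost in all 8 fits that left out a total RNA array. That of Bmp2 was lost in all but the fit without E1KD control replicate 1. The Jun difference was lost in 4 of these fits and that of Twist2 only without E1KD TGFb replicate 1. Quantile scaling lost Bmp2, Depdc1a, Fgf21, Gsta2 and Junb. Fgf21, Gsta2 and Junb were also lost with no filter on low values, and Junb when centred on actin and Gapdh. The causes were not tested. Groups of 2 arrays limit what can be shown. Changes of 1 on the log2 scale were recovered in 62% of simulated cases, where noise was pooled over all fitted groups and few changes were planted. That share need not hold for the real arrays.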

Other observations

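Of 36 glutathione and NRF2 genes tested, 8 (22.2%) fell and 6 (16.7%) rose with TGFb, against 11.3% and 11.6% of all genes. The alpha class glutathione transferases, which conjugate lipid peroxidation products, fell in both lines: Gsta3 was 6.28 and 5.96 with TGFb against 8.54 and 8.81 in control E1KD cells (-2.56), and changed by -1.49 in NMuMG. Gclc, the catalytic subunit of the first enzyme of glutathione synthesis, rose by 0.30 in E1KD and fell by 1.20 in NMuMG.

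Of 30 cytokine and chemokine genes, 6 (20%) rose and 3 (10%) fell in E1KD, the falls at about the share of all genes (11.3%) and the rises beside 11.6%. The neutrophil chemokine gene Cxcl1 was 10.67 and 10.46 with TGFb against 8.59 and 8.71 in control E1KD cells (1.92), whereas in NMuMG it fell by 1.07. Of 29 p53 target and apoptosis genes, 9 (31%) fell and 4 (13.8%) rose in E1KD, the rises near the 11.6% of all genes, with the receptor gene Eda2r (-1.54), the antiproliferative gene Btg2 (-1.29) and the survival gene Bcl2 (-1.27) among those that fell.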
